A study of Homo sapiens with 6 samples.

Results

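Collagen chain genes and the enzymes and chaperone that modify, fold, trim and cross-link collagen were followed across the 6 libraries of an RPL13 knockdown in cultures of U251, a long-established line of human glioma cells. Members were the protein-coding rows whose symbol reads COL, a number, A and a number, together with LOX, LOXL1 to LOXL4, PLOD1 to PLOD3, SERPINH1 and BMP1. There were 41 members, 31 chains and 10 enzymes or chaperones, of 21429 genes in the table, and 38 of them had a mean level high enough to be tested (at least 3 on the deposited scale, as did 15327 genes in all). The cells of both groups carried a stable, doxycycline-inducible copy of mutant amyloid precursor protein (K670N/M671L) and were electroporated with a control siRNA in the siNC group or with an siRNA against RPL13, a protein of the large ribosomal subunit, in the siRPL13 group. Doxycycline was added to all cultures at 1 µg/mL when the medium was changed at 24 h, and RNA was taken at 72 h. Each group had 3 libraries described as biological replicates. The labels do not say whether the line is a single clone, and p-values measure the spread between these libraries only.

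A collagen is a trimer of chains that wind around each other in a triple helix. Fibrillar collagens (types I, V and XI among others) assemble into fibres, type IV forms the sheet of basement membranes, type VI forms beaded filaments, and FACIT collagens sit on the surface of fibres. Chains are made in the endoplasmic reticulum, where lysines are hydroxylated by the PLOD enzymes and the helix is guarded by the chaperone encoded by SERPINH1. After secretion BMP1 removes the C-terminal propeptide, and the lysyl oxidases (LOX and LOXL genes) start the cross-links. Glioma cells grown as cultures are known to make several of these chains, many of which are scarce in healthy brain tissue.

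The genes of type IV collagen lie in head-to-head pairs that share the stretch between their start sites. Without the library labelled siRPL13 replicate 3, left out for a reason given below, both genes passed the test of the knockdown in 1 of the 3 pairs. With all 6 libraries none of these genes passed, and differences between the genes of a pair were not tested. The RefSeq promoter table (GRCh38.p14) held 42 entries for 32 of the 41 members. Stretches are shown for the 3 pairs and for COL17A1, the member with the largest rise. All are 5′ to 3′, in lower case, and capitals mark exact matches on either strand to one of the motifs searched, none of which overlapped there. The GC box was searched as GGGCGG. The box named for its letters was searched as CCAAT. The TATA-type box was searched as TATAAA. The first is the whole interval of 126 bases between the RefSeq starts of COL4A1 and COL4A2, chr13:110307158-110307283, plus strand, which is the sense of COL4A2 (GENCODE 29 has further transcripts that begin inside it). The second is the 250 bases before the COL4A5 start, chrX:108439588-108439837, plus strand, of 379 bases that part it from COL4A6. The third is the whole interval of 111 bases between the GENCODE 29 genes COL4A3 and COL4A4, chr2:227164454-227164564, plus strand. The fourth is upstream of COL17A1, chr10:104085958-104086130, minus strand.
COL4A1/COL4A2: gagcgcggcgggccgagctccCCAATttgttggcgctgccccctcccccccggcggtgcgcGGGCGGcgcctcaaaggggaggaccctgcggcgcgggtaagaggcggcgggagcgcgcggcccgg
COL4A5/COL4A6: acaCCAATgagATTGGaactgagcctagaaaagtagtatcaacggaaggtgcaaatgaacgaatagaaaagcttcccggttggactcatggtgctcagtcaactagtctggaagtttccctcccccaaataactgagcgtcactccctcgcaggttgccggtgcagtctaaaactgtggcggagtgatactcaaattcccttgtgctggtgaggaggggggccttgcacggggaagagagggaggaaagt
COL4A3/COL4A4: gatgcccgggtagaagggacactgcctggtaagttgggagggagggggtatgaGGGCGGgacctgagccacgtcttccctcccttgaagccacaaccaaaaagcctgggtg
COL17A1: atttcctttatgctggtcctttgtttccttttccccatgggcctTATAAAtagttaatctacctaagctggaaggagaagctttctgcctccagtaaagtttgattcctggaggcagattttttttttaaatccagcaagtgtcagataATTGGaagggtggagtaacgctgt

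The stretch shared by COL4A1 and COL4A2 was 80.2% G or C, that before COL4A5 was 51.2%, that before COL4A3 was 61.3%, and that upstream of COL17A1 was 40.5%. Over the 250 bases before each start, a GC box was found in 26 of 42 member promoters (61.9%) and in 42.6% of all 35116 promoters of the table. The median G or C content of these bases was also higher, at 67.8% over the 32 members and 58.0% over all promoters. Its part in the GC box matches was not tested. Some of the 42 entries overlap, so they are not all separate promoters. A CCAAT box was found in 11 of 42 (26.2%, against 32.0% of all) and a TATA box in 5 of 42 (11.9%, against 10.7% of all). These are matches of letters and do not show a bound factor.

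Each gene has 1 deposited value per library, a regularized log (rlog) on a log2 scale, and read depth is unknown. The targeted transcript was lowered in 2 of the 3 siRPL13 libraries: RPL13 stood between 14.05 and 14.18 in siNC, was down to 13.03 and 13.12 in the siRPL13 replicates 1 and 2, and was 14.09 for the library labelled siRPL13 replicate 3. The genes were therefore tested with all 6 libraries and without that last one, called the 5-library comparison. A difference with no other note is from the 5 libraries. "Rose" and "fell" are used for genes past 0.05 in the 5-library comparison, after limma p-values were adjusted over all 15327 genes. The glial and mesenchymal markers VIM, CD44, GFAP and NES were abundant (14.11 to 16.33 over the libraries), as was TNC (15.73 to 15.99). Of the same list SLC1A3 stood at 11.09 to 11.49, S100B was low at 5.48 to 5.83, and CHI3L1 stood at 0.21 to 0.25. Each list of markers of other cells held genes at low and at higher levels. Of the epithelial markers CDH1 stood at 0.40 to 0.45 and KRT18 at 7.78 to 8.15, and of the leukocyte markers CD68 at 0.36 to 0.40 and CSF1R at 4.88 to 5.22. Of the fibroblast and mural markers FAP stood at 1.67 to 1.83, PDGFRB at 5.69 to 6.11, ACTA2 at 5.71 to 5.96 and THY1 at 12.82 to 13.08. The endothelial markers VWF and CDH5 stood at 4.94 to 5.18 and 5.84 to 6.43.

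In the 5-library comparison 12 chains fell, among them 5 fibrillar and 4 type IV chains, and 5 rose, which were 3 FACIT collagens, the transmembrane COL17A1 and the third chain of type VI. Of the enzymes 4 fell and none rose. With all 6 libraries no collagen gene or enzyme passed the test (limma, 0 of 38, against 0% of all genes), and 5 had an unadjusted p under 0.05, where 8.32% of all genes did. These 5 were COL17A1, COL16A1, COL6A3, COL4A5 and COL5A2, chosen for mention after their values were seen. Without the library labelled siRPL13 replicate 3, 21 of 38 passed, 55.3% against 19.1% of all genes. Of these, 5 rose (13.2%, against 8.42% of all genes) and 16 fell (42.1%, against 10.7%). At an unadjusted p under 0.05 (limma) there were 23 of 38, against 33.4% of all genes. No member differed by 2-fold. Both siRPL13 libraries lay above all 3 siNC libraries in 5 members (24.7% of all genes) and below them in 21 (26.6% of all genes); with all 6 libraries 2 members (COL16A1 and COL17A1) lay apart above, against 6.92% of all genes, and 2 (COL4A5 and COL5A2) below, against 6.9%. The calls lean on having both libraries: without siRPL13 replicate 1 there were 1 higher and 1 lower, and without siRPL13 replicate 2 there were 4 higher and 4 lower. The median difference over the 38 genes was -0.15 (siRPL13 minus siNC, log2), and over all genes tested it was -0.0014. The median size of the difference, whatever its sign, was 0.21 against 0.098. In a culture of 1 line, fewer cells of a kind and less RNA per cell cannot be told apart from these bulk values.

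**Figure D1:**
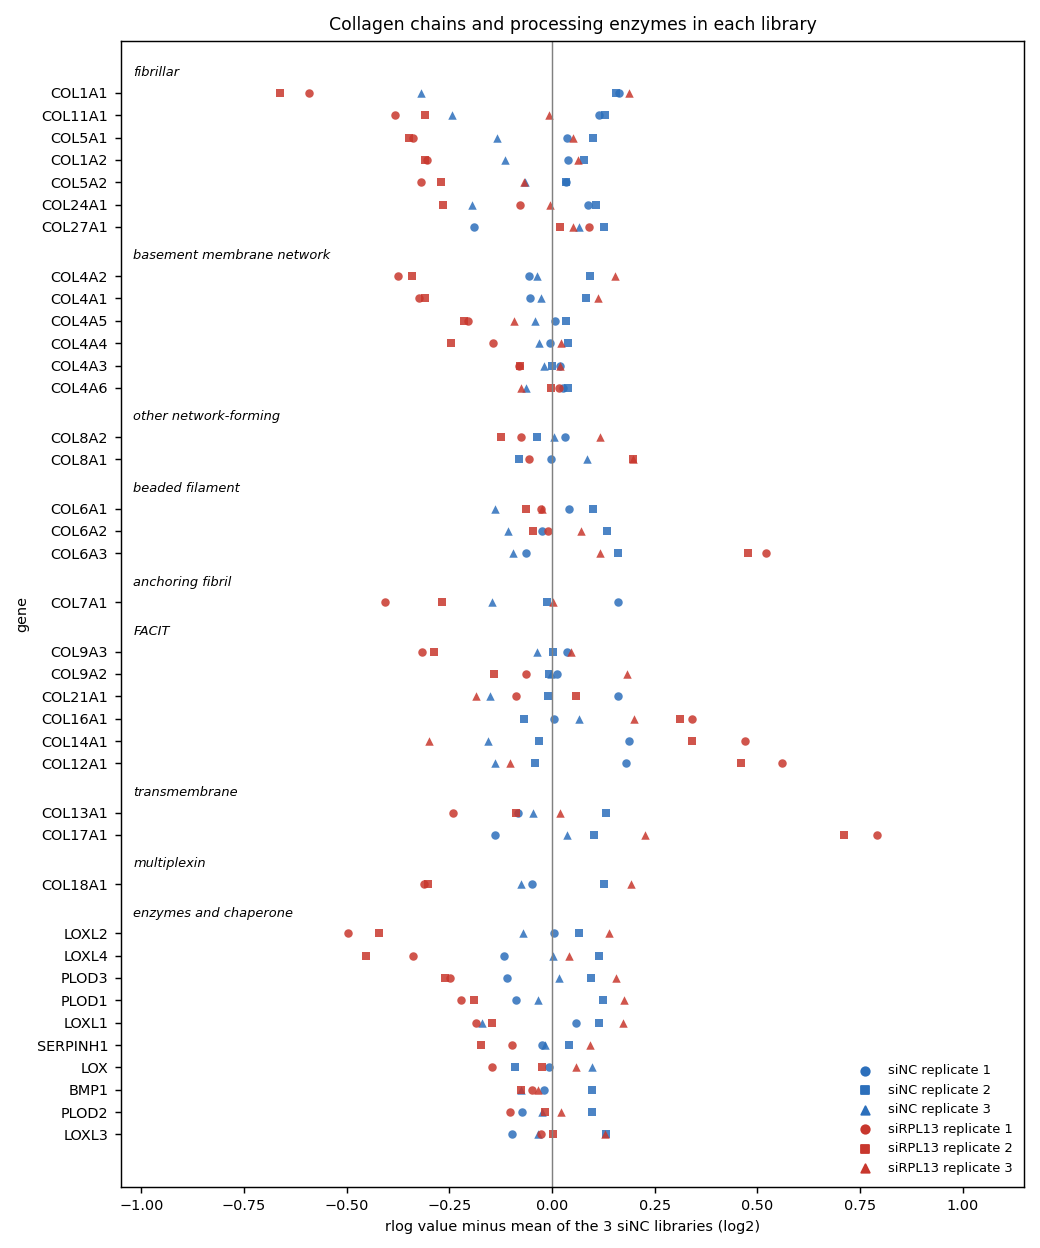
Each library's rlog value relative to the siNC mean of the same gene (horizontal axis, log2) for the 38 tested genes, grouped by class on the vertical axis, with 1 point per library (blue for siNC, red for siRPL13; circle, square and triangle for replicates 1, 2 and 3). For COL17A1 siRPL13 replicates 1 and 2 lie farthest to the right, and for COL1A1 farthest to the left, while the library labelled siRPL13 replicate 3 lies among or near the siNC libraries.

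Where a member moved in siRPL13 replicates 1 and 2, the library labelled siRPL13 replicate 3 did not move as far; it had no part in calling these members. In all 16 members that fell it lay above both other siRPL13 libraries, and in all 5 that rose it lay below both. The members were called on those other libraries against siNC, so these counts follow in part from that choice. The same counts over all genes called were not made. Relative to siNC, the library labelled replicate 3 lay above all 3 siNC libraries in 8 of the 16 members that fell. It lay within their range in 6 and below it in 2 (COL4A5 and COL5A2). Over all 1642 genes that fell, the shares were 44% above, 36.2% within and 19.8% below, so the members were close to the rest in this. The median of the 16 members that fell, relative to the siNC mean, was -0.32 and -0.31 for siRPL13 replicates 1 and 2 but 0.057 for the library labelled replicate 3. Of the 5 members that rose, 2 lay above the siNC range there, 2 within it and 1 below it; over all 1291 genes that rose the shares were 23.9%, 43.2% and 32.8%.

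Of 7 fibrillar chains tested, 5 fell (COL1A1, COL1A2, COL5A1, COL5A2 and COL11A1), where 10.7% of all genes fell. None rose, and COL24A1 and COL27A1 did not pass. COL1A1 (ENSG00000108821, GRCh38 chromosome 17, 50183289 to 50201632, minus strand), which encodes the main chain of type I collagen, stood at 9.67, 9.67 and 9.19 in siNC replicates 1 to 3. Its siRPL13 values were 8.92 and 8.85 in replicates 1 and 2 and 9.70 for the library labelled replicate 3. The first 2 of these lay below every siNC library, and the last lay above them all. The difference was -0.63 ± 0.12 (SE, adjusted p 0.00675 by limma, 64.7% of siNC), the largest fall of the list, and siNC replicate 3 was itself well below the other siNC libraries. With all 6 libraries it was -0.36 ± 0.22.

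COL1A2 (ENSG00000164692, chromosome 7, 94394561 to 94431232, plus strand), the other chain of type I, stood at 15.73, 15.77 and 15.58 in siNC, at 15.39 and 15.38 in the first 2 siRPL13 replicates and at 15.76 in the library labelled replicate 3. The 2 libraries in which RPL13 was lowered were again the lowest. The difference was -0.31 ± 0.07 (SE, adjusted p 0.00927 by limma), and -0.18 ± 0.11 with all 6 libraries.

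The tested chain genes of type V collagen, which is built into type I fibres and limits their width, fell as well. COL5A1 stood at 13.24, 13.31 and 13.07 in siNC, at 12.87 and 12.86 in the first 2 siRPL13 replicates and at 13.26 in the library labelled replicate 3 (difference -0.34 ± 0.07 SE, adjusted p 0.00577 by limma; -0.21 ± 0.11 with all 6 libraries). COL5A2 stood at 13.93, 13.93 and 13.83 in siNC and at 13.58, 13.63 and 13.83 in siRPL13 replicates 1 to 3. All 3 siRPL13 values of COL5A2 lay below the siNC values, the third by less than the printed digits show. Its difference was -0.29 ± 0.05 (SE, adjusted p 0.00422 by limma), and -0.22 ± 0.08 with all 6 libraries.

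COL11A1, whose product joins the type V chains in fibre cores, stood at 9.65, 9.66 and 9.29 in siNC and at 9.15, 9.22 and 9.53 in siRPL13. Its lowest siNC library, replicate 3, was close to siRPL13 replicate 2. The difference was -0.35 ± 0.10 (SE, adjusted p 0.0372 by limma), and -0.23 ± 0.13 with all 6 libraries. The call was lost without a variance trend and without siNC replicate 1 or 2. COL24A1 (6.08 to 6.45 over the 6 libraries) and COL27A1 (5.80 to 6.12), fibrillar chains with low levels, did not pass, and their 95% intervals ran from -0.40 to 0.05 and from -0.15 to 0.26. COL5A3, at 2.20 to 2.30, was under the level for testing.

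**Figure D2:**
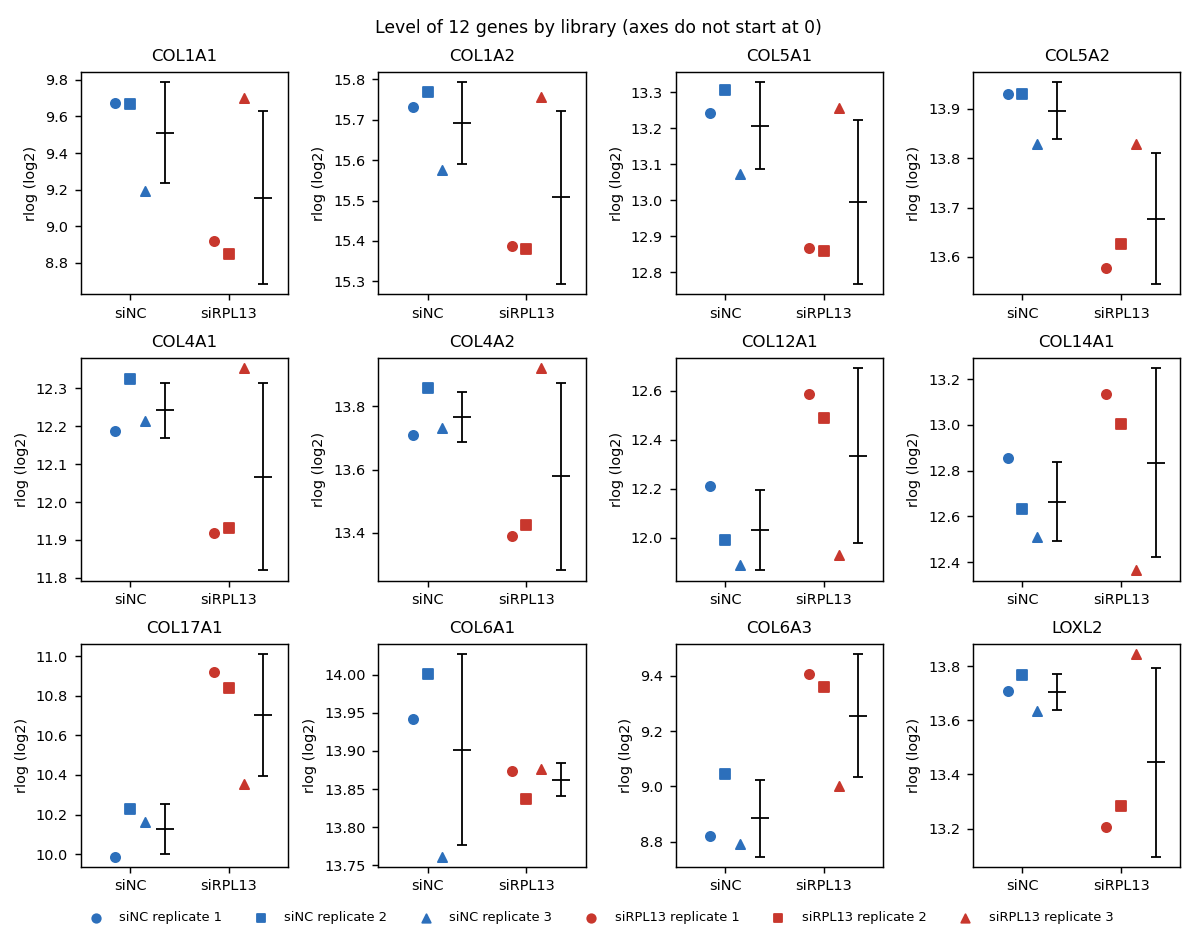
rlog values (vertical axes, log2, not starting at 0) of 12 genes by library (blue for siNC, red for siRPL13; circle, square and triangle for replicates 1, 2 and 3), with bars at the group mean ± SD of 3 libraries. COL1A1 lies at 8.92 and 8.85 in siRPL13 replicates 1 and 2 against 9.19 to 9.67 in siNC, COL17A1 at 10.92 and 10.84 against 9.99 to 10.23, and COL6A1 overlaps between the groups.

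Of 6 basement membrane chains of type IV tested, 4 fell, against 10.7% of all genes, 0 rose, and COL4A3 and COL4A6 did not pass. COL4A1 (ENSG00000187498, chromosome 13, 110148963 to 110307233, minus strand) and COL4A2 (ENSG00000134871, chromosome 13, 110305812 to 110513209, plus strand) encode the chains of the most widespread type IV trimer and overlap by these GENCODE 29 bounds, while their RefSeq starts flank the stretch with 80.2% G or C. COL4A1 stood at 12.19, 12.32 and 12.21 in siNC, at 11.92 and 11.93 in the first 2 siRPL13 replicates and at 12.35 in the library labelled replicate 3. The difference was -0.32 ± 0.05 (SE, adjusted p 0.00353 by limma). Its library labelled siRPL13 replicate 3 was the highest of the 6.

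COL4A2 followed library by library, at 13.71, 13.86 and 13.73 in siNC and at 13.39, 13.42 and 13.92 in siRPL13 (difference -0.36 ± 0.06 SE, adjusted p 0.0024 by limma). With all 6 libraries the differences were -0.17 ± 0.11 for COL4A1 and -0.19 ± 0.13 for COL4A2. Among the 7 chain pairs compared below, this pair had the smallest spread over the siNC libraries.

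In each of the other head-to-head pairs 1 gene passed. COL4A5 (chromosome X, 108439844 to 108697545, plus strand) fell, from 11.49, 11.52 and 11.44 in siNC to 11.28, 11.27 and 11.39 in siRPL13, with all 3 siRPL13 libraries below all 3 siNC libraries (difference -0.21 ± 0.05 SE, adjusted p 0.0155 by limma; -0.17 ± 0.06 with all 6 libraries). Its neighbour COL4A6 stood at 8.77 to 8.89 over the 6 libraries with a difference of 0.01 ± 0.07 (95% interval -0.14 to 0.15). Whether the 2 differences differ from each other was not tested.

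COL4A4 stood at 4.77, 4.82 and 4.75 in siNC and at 4.63, 4.53 and 4.80 in siRPL13. It fell (-0.19 ± 0.06 SE, adjusted p 0.0407 by limma; -0.12 ± 0.07 with all 6 libraries), but the call was lost without the filter on low levels and when any siNC library was left out. Its partner COL4A3, at 3.32 to 3.42 over the 6 libraries, had a difference of -0.08 ± 0.04 (95% interval -0.17 to 0.01) and did not pass. The network-forming chains of type VIII did not pass either, with 95% intervals from -0.13 to 0.27 for COL8A1 (6.53 to 6.81 over the libraries) and from -0.24 to 0.04 for COL8A2 (5.27 to 5.51).

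Of the 3 beaded filament chains of type VI, 1 rose, where 8.42% of all genes did. COL6A3 (ENSG00000163359, chromosome 2, 237324003 to 237414375, minus strand), which encodes the longest chain of the type VI trimer, stood at 8.82, 9.04 and 8.79 in siNC, at 9.41 and 9.36 in the first 2 siRPL13 replicates and at 9.00 in the library labelled replicate 3. It rose by 0.50 ± 0.08 (SE, adjusted p 0.0031 by limma) to 141% of siNC, and the difference with all 6 libraries was 0.37 ± 0.12. The other chains, whose genes both lie on chromosome 21, did not pass. COL6A1 (45981737 to 46005050) stood at 13.94, 14.00 and 13.76 in siNC and at 13.87, 13.84 and 13.88 in siRPL13, with a 95% interval for the difference from -0.20 to 0.10. COL6A2 (46098097 to 46132849) stood at 13.51, 13.67 and 13.43 in siNC and at 13.53, 13.49 and 13.61 in siRPL13, with an interval from -0.17 to 0.12. The intervals of COL6A1 and COL6A2 do not reach that of COL6A3 (0.32 to 0.68), though the difference between chains was not itself tested.

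FACIT collagens, which decorate fibres without forming any, held 3 of the 5 members that rose. Of 6 tested in this class 3 rose and 1 fell, where 8.42% of all genes rose and 10.7% fell. COL12A1 (ENSG00000111799, chromosome 6, 75084326 to 75206051, minus strand), a large chain that links type I fibres to their surroundings, stood at 12.21, 11.99 and 11.89 in siNC, at 12.59 and 12.49 in the first 2 siRPL13 replicates and at 11.93 in the library labelled replicate 3. It rose by 0.51 ± 0.08 (SE, adjusted p 0.00256 by limma) to 142% of siNC. With all 6 libraries the difference was 0.31 ± 0.16.

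COL14A1, a related chain that also binds fibres, stood at 12.85, 12.63 and 12.51 in siNC and at 13.13, 13.01 and 12.36 in siRPL13 replicates 1 to 3. The library labelled siRPL13 replicate 3 was the lowest of the 6. The gene rose by 0.41 ± 0.09 (SE, adjusted p 0.0092 by limma), and the difference with all 6 libraries was 0.17 ± 0.18. COL16A1, at a low level, stood at 6.45, 6.38 and 6.51 in siNC and at 6.79, 6.76 and 6.65 in siRPL13. All 3 siRPL13 libraries lay above all 3 siNC libraries, and the gene rose by 0.33 ± 0.07 (SE, adjusted p 0.0134 by limma), with 0.28 ± 0.07 over all 6 libraries.

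In the same class COL9A3 went the other way. It stood at 6.39, 6.36 and 6.32 in siNC and at 6.04, 6.07 and 6.40 in siRPL13, and fell by 0.30 ± 0.07 (SE, adjusted p 0.0134 by limma; the difference with all 6 was -0.19 ± 0.10). Its partner chain COL9A2 (6.48 to 6.81 over the libraries) did not pass (95% interval -0.26 to 0.06), nor did COL21A1 (6.25 to 6.60, interval -0.23 to 0.20).

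COL17A1 (ENSG00000065618, chromosome 10, 104031286 to 104085957, minus strand), a transmembrane collagen that anchors epithelial cells through hemidesmosomes, had the largest rise of the list. It stood at 9.99, 10.23 and 10.16 in siNC, at 10.92 and 10.84 in the first 2 siRPL13 replicates and at 10.35 in the library labelled replicate 3. The groups did not overlap even with that library, which was the nearest to siNC (6.92% of all genes lay apart in this way). The rise was 0.75 ± 0.07 (SE, adjusted p 0.000274 by limma) to 168% of siNC, and the difference with all 6 libraries was 0.58 ± 0.14 with an unadjusted p of 0.00301 and an adjusted p of 0.589 (limma). COL13A1, another transmembrane chain, stood at 8.15 to 8.52 over the libraries and did not pass (95% interval -0.35 to 0.02). COL25A1, a transmembrane chain first described in amyloid plaques, stood at 1.48 to 1.52, under the level for testing, as did COL28A1 at 0.37 to 0.43.

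COL18A1, a basement membrane collagen from which endostatin is cut, stood at 11.90, 12.08 and 11.88 in siNC and at 11.64, 11.65 and 12.14 in siRPL13, and fell by 0.31 ± 0.06 (SE, adjusted p 0.00805 by limma; the difference with all 6 was -0.14 ± 0.13). Of its annotated exon bases 16.4% are shared with SLC19A1 on the other strand (mean rlog 10.72), and since it is not given whether counting kept strand, reads in that stretch cannot be assigned with certainty. COL7A1, the chain of the anchoring fibrils that tie basement membranes to the tissue below, stood at 6.66, 6.48 and 6.35 in siNC and at 6.09, 6.23 and 6.50 in siRPL13. It fell by 0.34 ± 0.10 (SE, adjusted p 0.0319 by limma; the difference with all 6 was -0.22 ± 0.12), and the call was lost without siNC replicate 1 or 2.

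**Figure D3:**
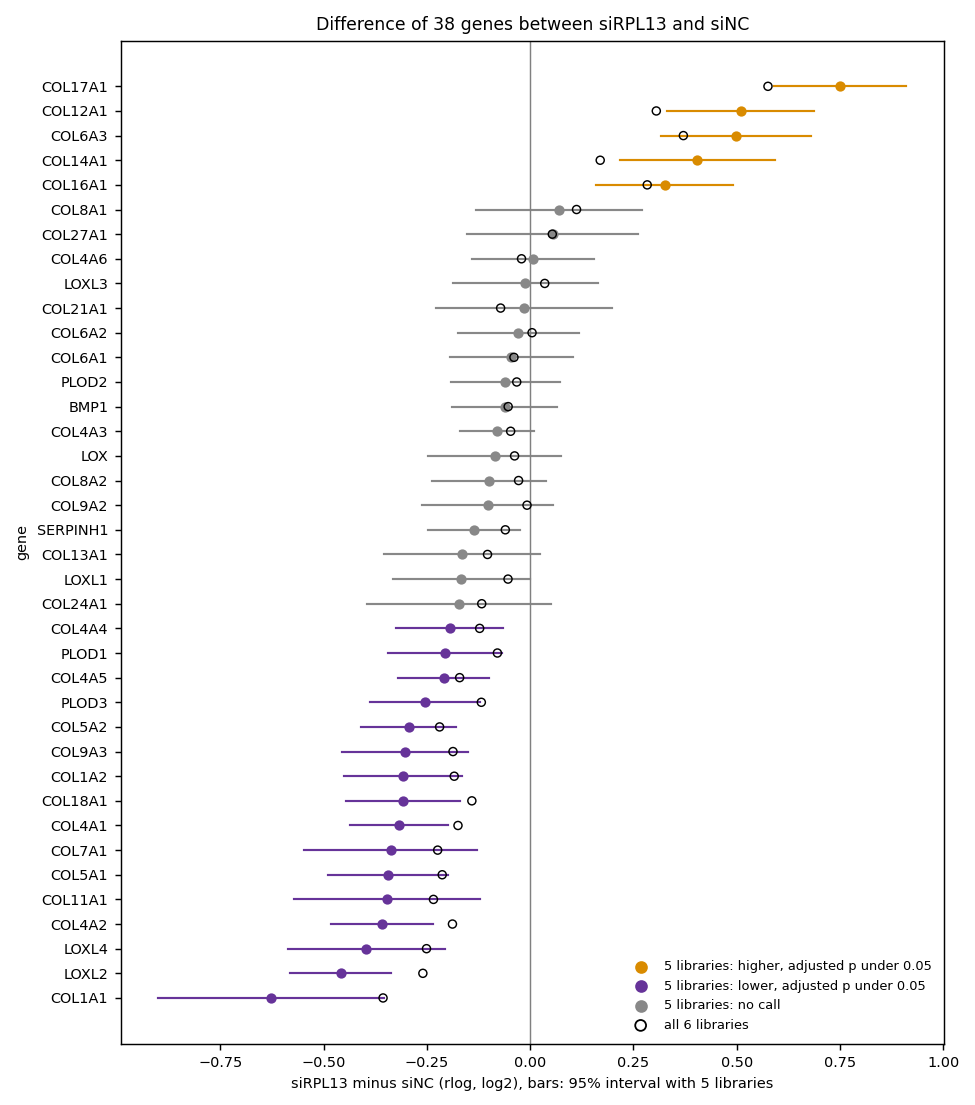
Difference between siRPL13 and siNC (horizontal axis, log2) of the 38 tested genes, ordered by size, as filled points with 95% intervals in the 5-library comparison, and as open circles with all 6 libraries. Orange genes rose and purple genes fell; COL17A1 is at 0.75 and COL1A1 at -0.63, and the open circles of these lie closer to 0, at 0.58 and -0.36.

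Of the 10 enzymes and chaperones 4 fell, 0 rose and 6 did not pass, where 10.7% of all genes fell and 8.42% rose. LOXL2 (ENSG00000134013, chromosome 8, 23297189 to 23425328, minus strand), a lysyl oxidase known to cross-link type IV collagen, stood at 13.71, 13.77 and 13.63 in siNC, at 13.21 and 13.28 in the first 2 siRPL13 replicates and at 13.84 in the library labelled replicate 3. The difference was -0.46 ± 0.06 (SE, adjusted p 0.000742 by limma, 72.7% of siNC), and -0.26 ± 0.15 with all 6 libraries. LOXL2 and COL17A1 were the only members that still passed with either siRPL13 replicate 1 or 2 as the single siRPL13 library. A share of 2.1% of LOXL2 exon bases is also annotated to ENTPD4.

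LOXL4, of the same family, stood at 7.97, 8.21 and 8.10 in siNC and at 7.75, 7.64 and 8.13 in siRPL13, and fell by 0.40 ± 0.09 (SE, adjusted p 0.0107 by limma; the difference with all 6 was -0.25 ± 0.13). LOX, LOXL1 and LOXL3 did not pass, with 95% intervals from -0.25 to 0.08, from -0.33 to -0.0009 and from -0.19 to 0.16. LOXL1 stood at 12.10, 12.16 and 11.88 in siNC and at 11.86, 11.90 and 12.22 in siRPL13, so the groups overlapped, and it passed only without siNC replicate 3. LOX lay between 9.32 and 9.57 and LOXL3 between 8.58 and 8.81 over the 6 libraries, and 14.3% of LOXL3 exon bases are shared with HTRA2 on the other strand.

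Among the lysyl hydroxylases, PLOD3, which also attaches sugars to hydroxylysine, stood at 12.71, 12.92 and 12.84 in siNC and at 12.57, 12.56 and 12.98 in siRPL13, and fell by 0.25 ± 0.06 (SE, adjusted p 0.0158 by limma; the difference with all 6 was -0.12 ± 0.11). PLOD3 shares 7.57% of its exon bases with ZNHIT1 on the other strand. PLOD1, which hydroxylates lysines of the helix, stood at 12.41, 12.62 and 12.47 in siNC and at 12.28, 12.31 and 12.68 in siRPL13. It fell by 0.21 ± 0.06 (SE, adjusted p 0.042 by limma; the difference with all 6 was -0.08 ± 0.11), a call lost without the filter, with quantile scaling, without a variance trend and without siNC replicate 2 or 3. PLOD2, which acts on the ends of the chains, stood at 11.52 to 11.72 over the libraries and did not pass (95% interval -0.19 to 0.07).

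SERPINH1, the collagen chaperone of the endoplasmic reticulum, stood at 12.07, 12.13 and 12.07 in siNC and at 11.99, 11.92 and 12.18 in siRPL13. Its difference of -0.14 ± 0.05 (SE, adjusted p 0.0848 by limma) did not pass, though it did without siNC replicate 1 and with library weights. BMP1, the C-propeptide protease, stood at 12.10 to 12.27 over the libraries with a 95% interval from -0.19 to 0.06.

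Other genes of the pathway were taken from a list of 48 symbols, of which 40 were in the table and 36 were tested. In the 5-library comparison 2 rose (5.56%, against 8.42% of all genes) and 8 fell (22.2%, against 10.7%). Together these were 27.8%, against 19.1% of all genes. With all 6 libraries none passed (limma) and 1 had an unadjusted p under 0.05, where 8.32% of all genes did. Prolyl hydroxylation had 4 of 8 genes lower and 0 higher, with P4HA2, a catalytic subunit of prolyl 4-hydroxylase, at -0.40 ± 0.06 (SE, adjusted p 0.00215 by limma). P4HA2 stood at 10.63, 10.74 and 10.70 in siNC and at 10.23, 10.36 and 10.77 in siRPL13. P4HB, the partner subunit, and the prolyl 3-hydroxylase genes P3H1 and P3H3 were the other members that fell there. Folding and glycosylation had 2 of 5 lower: COLGALT1, which adds galactose to hydroxylysine, at -0.46 ± 0.06 (adjusted p 0.00096 by limma), and PPIB, a prolyl isomerase that folds collagen, at -0.33 ± 0.05 (adjusted p 0.00199). COLGALT1 stood at 13.24, 13.43 and 13.34 in siNC and at 12.85, 12.90 and 13.53 in siRPL13, so that the library labelled replicate 3 was the highest of the 6. PPIB stood at 12.16, 12.19 and 12.17 in siNC and at 11.79, 11.89 and 12.20 in siRPL13. TMEM38B, an ion channel of the endoplasmic reticulum needed for collagen folding, rose by 0.33 ± 0.07 (adjusted p 0.0109 by limma).

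TMEM38B stood at 9.54, 9.33 and 9.51 in siNC and at 9.79, 9.79 and 9.39 in siRPL13, and in the library labelled replicate 3 it lay within the siNC range. In secretion MIA3, a cargo receptor for procollagen, rose by 0.21 ± 0.07 and SEC24D, a coat subunit of transport vesicles, fell by 0.29 ± 0.09, at adjusted p-values of 0.0482 and 0.0491 (limma). MIA3 stood at 10.04, 10.20 and 10.11 in siNC and at 10.39, 10.26 and 10.14 in siRPL13. ADAMTS14, an N-propeptide protease, fell by 0.32 ± 0.08 (adjusted p 0.0144 by limma) and stood at 7.11, 7.23 and 7.19 in siNC and at 6.83, 6.88 and 7.22 in siRPL13. Neither count was firm: without siRPL13 replicate 1 there were 0 higher and 1 lower, without siRPL13 replicate 2 there were 0 higher and 4 lower, without siNC replicate 1 there were 4 higher and 9 lower, and without siNC replicate 3 there were 1 higher and 7 lower. Over all 6 libraries the differences were -0.24 ± 0.12 for P4HA2, -0.25 ± 0.16 for COLGALT1, -0.21 ± 0.10 for PPIB and -0.20 ± 0.11 for ADAMTS14. They were -0.23 ± 0.10 for SEC24D, 0.19 ± 0.12 for TMEM38B and 0.15 ± 0.08 for MIA3, and the adjusted p-values of these 7 genes then ran from 0.589 to 0.646 (limma). Of 3 fibril-binding genes (SPARC, FN1 and BGN) and 6 receptor and uptake genes none passed (limma), and 2 and 1 of them had an unadjusted p under 0.05.

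Levels of different genes were compared per length, as the rlog value minus the log2 of the exon length in kb, on the mean of the siNC libraries. COL1A2 was the highest of the list at 12.21, above 98.5% of the genes tested, followed by COL6A1 at 11.48, LOXL2 at 11.19, COL6A2 at 11.11 and COL5A2 at 11.00. The highest of the other classes were COL14A1 among FACIT collagens at 9.55, COL4A2 in the basement membrane class at 9.50, COL18A1 at 8.86, COL17A1 among transmembrane chains at 7.31, COL8A1 in the other network-forming class at 3.38 and COL7A1 at 3.03. COL4A3 was the lowest of the tested members at 0.21. With the longest transcript as the length COL4A2 stood at 11.07, and neighbours in this order may change places.

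**Figure D4:**
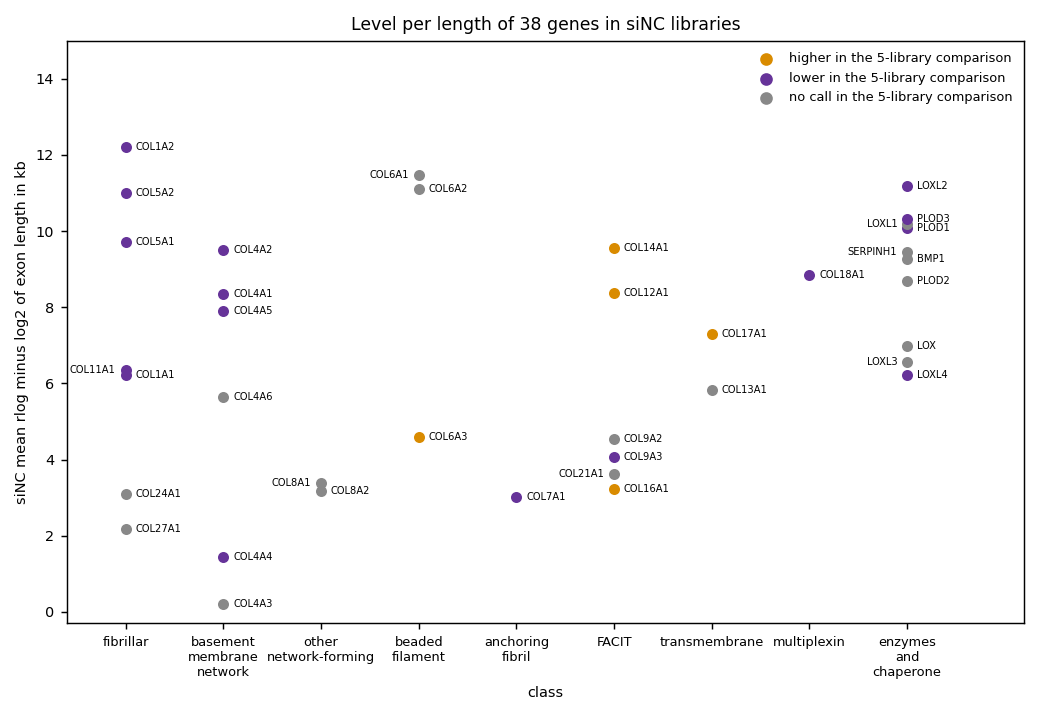
Mean siNC rlog minus log2 of the exon length in kb (vertical axis) for the 38 tested genes by class (horizontal axis), coloured by the result of the 5-library comparison, with no error drawn. COL1A2 is at 12.21 and COL1A1 at 6.22, and in the beaded filament class COL6A1 and COL6A2 are at 11.48 and 11.11 and COL6A3 at 4.59.

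Chains that share a trimer were often at unequal levels. Type I collagen usually holds more of the COL1A1 than of the COL1A2 product. In these libraries COL1A2 exceeded COL1A1 per length by 6.00 ± 0.18 (SD, n = 3) in siNC, which is 63.8-fold. The excess was 6.28 and 6.35 for siRPL13 replicates 1 and 2, above the siNC range of 5.87 to 6.20, and 5.87 for the library labelled replicate 3. COL6A1 exceeded COL6A3 by 6.89 ± 0.09 in siNC (119-fold) and by 6.34 and 6.35 in siRPL13 replicates 1 and 2. For the library labelled replicate 3 that excess was 6.75, also below the lowest siNC value of 6.83. These changes of the excess over groups were not tested.

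Other pairs were closer. COL4A2 exceeded COL4A1 by 1.14 ± 0.0088 (SD, n = 3) in siNC and by 1.08, 1.10 and 1.18 in siRPL13 replicates 1 to 3. COL5A2 exceeded COL5A1 by 1.28 ± 0.07 in siNC and by 1.16 to 1.35 in siRPL13. The excess of COL6A1 over COL6A2 was 0.38 ± 0.06, that of COL8A1 over COL8A2 0.20 ± 0.07 and that of COL9A2 over COL9A3 0.46 ± 0.03. In siRPL13 the first was 0.28 to 0.36 and the second 0.22 to 0.52. The excess of COL9A2 over COL9A3 was 0.72, 0.61 and 0.60 in siRPL13 replicates 1 to 3. All lay above the siNC values of 0.44 to 0.50, a shift that was not tested. The length of a gene is the same in every library, so for any pair the shift between groups cannot depend on it. With the longest transcript as the length the siNC excess of these last 3 pairs became 0.07, 0.92 and 0.06, so their size depends on the length used.

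**Figure D5:**
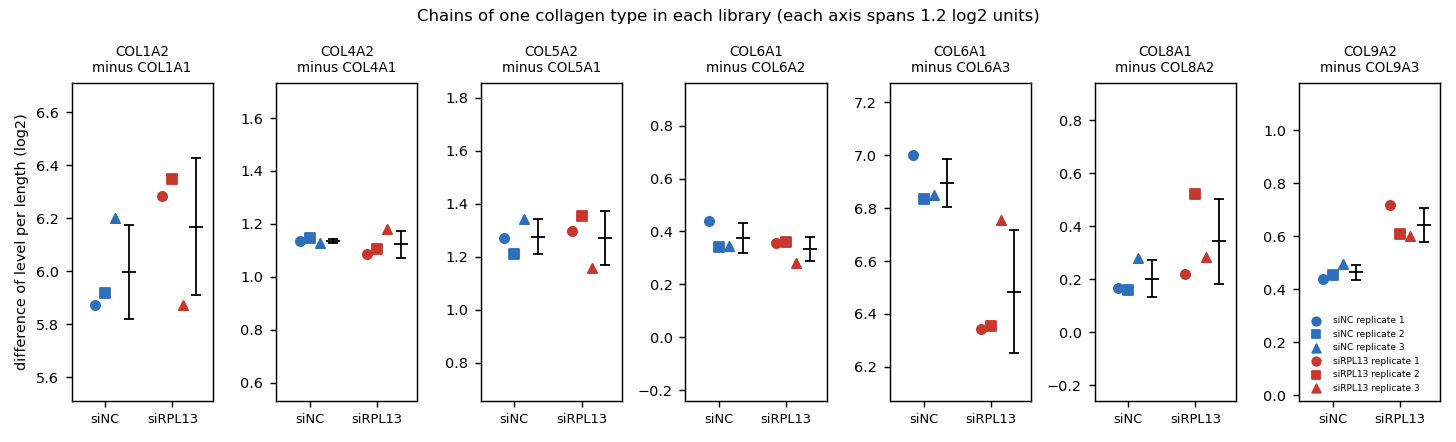
Difference in level per length (vertical axes, log2, each spanning 1.2 units) between chains of the same collagen type in each library (blue for siNC, red for siRPL13; circle, square and triangle for replicates 1, 2 and 3), with bars at the group mean ± SD of 3 libraries. The excess of COL6A1 over COL6A3 is 6.34 and 6.35 in siRPL13 replicates 1 and 2 against 6.83 or more in siNC, while that of COL4A2 over COL4A1 stays between 1.08 and 1.18.

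Markers of other cell types were read in the same fits. Of 2 endothelial markers in the table CDH5 fell (-0.46 ± 0.08 SE, adjusted p 0.0034 by limma) and VWF did not pass, and the summed level of the pair was 6.81 to 6.93 in siNC and 6.49 to 6.81 in siRPL13. Of 4 fibroblast and mural markers THY1 fell (-0.18 ± 0.06, adjusted p 0.046 by limma), FAP was under the level for testing, and the summed level was 12.94 to 13.10 in siNC and 12.85 to 13.03 in siRPL13. Of 2 epithelial and 2 leukocyte markers, CDH1 and CD68 were under the level for testing. Neither KRT18 nor CSF1R passed (limma), and KRT18 had an unadjusted p under 0.05. Of 8 astroglial and glioma markers VIM and NES fell, TNC rose and CHI3L1 was under the level for testing. Their summed level was 17.89 to 18.06 in siNC and 17.75 to 17.88 in siRPL13. The groups lay apart only narrowly, with 17.8872 the lowest siNC and 17.8785 the highest siRPL13 value. That gap is smaller than the range within siNC, and the sums were not tested. None of these markers passed with all 6 libraries (limma). An unadjusted p under 0.05 (limma) was then found for 4 of them (VIM, CDH5, NES and GFAP), where 8.32% of all genes had one. The differences of these were -0.29 ± 0.07 for VIM, -0.35 ± 0.10 for CDH5, -0.25 ± 0.08 for NES and -0.36 ± 0.13 for GFAP. For THY1 and TNC they were -0.13 ± 0.07 and 0.11 ± 0.08. The part of all these markers in the collagen results was not tested.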

How the data were processed

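RNA of 6 cultures was sequenced, 3 siNC and 3 siRPL13, from 1.5 µg of total RNA per library; groups and replicate numbers come from the labels. The deposited values are called rlog in the table's name: log2 values by the regularized-log method, which are scaled for library size and shrunk towards each gene's mean. The labels do not describe the steps by which the authors made them. Differences of low genes are therefore understated, depth per library is unknown, and no count model was used. Tools listed in the submitters' processing notes, without roles or settings, are DESeq2, HTSeq 0.6.1p1, TopHat and Trimmomatic 0.33, and the build is GRCh38.p7. Whether counting kept strand is not given there.

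Symbols came from a table of current gene names (20499 of 21429 identifiers) and positions, types and exon lengths from GENCODE 29 (20608), on the same GRCh38 chromosomes; 821 identifiers were in neither. Of the collagen symbols listed by class, 13, among them COL2A1 and COL3A1, were not analysed here. Promoter sequences are from RefSeq, GRCh38.p14; 9 members had none in that table.

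All genes whose mean rlog reached 3 were fitted together with limma 3.58.1 in R 4.3.3 (lmFit, eBayes with a trend, two-sided, Benjamini-Hochberg over 15327 genes, threshold 0.05), with all 6 libraries and without the library labelled siRPL13 replicate 3. The fit was also run on simulated data with 200 changed genes and the same spread for every gene and library. The deposited data differ from that setting, so the simulation does not bear on how far the calls can be trusted. The members, lists and the 5-library comparison were chosen with earlier results of these data known. Genes named in full were all members past the threshold, their trimer partners, the highest member per length of each class, and up to 4 pathway genes in each direction. No pair of libraries shared identical values. Same-numbered libraries did not deviate together, which does not settle whether they were paired. Figures were drawn with matplotlib 3.10.9.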

Additional observations from a re-analysis of the deposited data

How the results depend on the processing

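With all 6 libraries the counts of collagen members called stayed at 0 higher and 0 lower without a filter, with a mean rlog of at least 5, with quantile scaling, median centring, no variance trend or a robust trend, and with the replicate block. Library weights gave 5 higher and 17 lower members, and 6 higher and 13 lower pathway genes, with 5309 of 15327 genes (34.6%) called in all; the weights ran from 0.163 for the library labelled siRPL13 replicate 3 to 7.19 for siRPL13 replicate 2. Leaving out each library gave 0 to 5 members higher and 0 to 16 lower, and 0 to 2 pathway genes higher and 0 to 8 lower; all the counts above 0 came from leaving out the library labelled siRPL13 replicate 3. Same-numbered libraries did not deviate together from their group means (correlations of 0.084, -0.43 and -0.33 for replicates 1 to 3). The siRPL13 mean includes the library labelled replicate 3, in which RPL13 was not lowered. These correlations therefore cannot settle whether same-numbered cultures were paired, and the block with its 0 calls pairs numbers only.

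In the 5-library comparison the settings other than leaving out a library kept 5 members higher and 14 to 17 lower. A further library left out gave 1 to 5 higher and 1 to 15 lower: without siRPL13 replicate 1 only COL17A1 and LOXL2 passed, and without siRPL13 replicate 2 there were 4 higher and 4 lower. For pathway genes this gave 0 to 4 higher and 1 to 9 lower; the 2 higher became 1 without a filter, 1 without a trend and 4 with library weights. None of the 21 members called changed sign under these alternatives. Uncalled members near 0 did: COL8A1 was -0.06 without siRPL13 replicate 2, COL21A1 was 0.06 without siRPL13 replicate 1, and with all 6 libraries COL21A1 was 0.09 with library weights. With 1 siRPL13 library its spread is assumed to be that of siNC.

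With the longest transcript as the length the chain differences in siNC became 6.35 (COL1A2 minus COL1A1), 1.55 (COL4A2 minus COL4A1), 0.95 (COL5A2 minus COL5A1), 0.0721 (COL6A1 minus COL6A2), 6.36 (COL6A1 minus COL6A3), 0.92 (COL8A1 minus COL8A2) and 0.0551 (COL9A2 minus COL9A3). The levels became 9.97 (COL14A1), 7.62 (COL17A1), 9.23 (COL18A1), 13.11 (COL1A2), 11.07 (COL4A2), 11.82 (COL6A1), 3.28 (COL7A1), 4.10 (COL8A1) and 11.88 (LOXL2), by the shorter length used. Depth per library is unknown, so precision rests on the spread between 3 libraries a group at most.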
